A study of Homo sapiens with 6 samples.

Results

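Spliceosomal small nuclear RNA (snRNA) genes were examined in RNA immunoprecipitated with an antibody against NAT10 (RIP-seq) and in Input RNA of human colorectal cancer (CRC) cells. The members were chosen by their measured level: a gene of the deposited RIP table was a member when its biotype was snRNA and its FPKM, a fragment count scaled by gene length and library size, was at least 0.1 in at least 1 of 4 libraries. This gave 398 of the 1909 snRNA genes in the table, which lists 58302 genes in all, and 27660 genes of any biotype passed the same threshold. The other 1511 snRNA genes were listed at 0 in all 4 libraries, and none lay between 0 and the threshold. The members just inside it were RNU2-17P, RNU1-72P, RNVU1-2, RNU2-24P and RNU4-51P, whose highest values were 0.209, 0.221, 0.25, 0.278 and 0.284 FPKM, each worth 1 read. All snRNA genes outside it were at 0.

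The study compared transcripts bound by NAT10, an RNA acetyltransferase, and transcripts carrying its product N4-acetylcytidine (ac4C) in SW480 and DLD-1, which are established epithelial lines from colorectal tumours. Per the labels, both lines were wild type and untreated, and they were grown in the same medium with serum. Each of the 6 groups (Input, NAT10 RIP and acRIP, the immunoprecipitation of fragmented RNA with an ac4C antibody, in each line) held 1 library. With no replicates, each difference below is between libraries, no test was made, and intervals cover counting error only.

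snRNAs are short, non-polyadenylated RNAs that carry proteins into the spliceosome, the machine that removes introns. U1 pairs with the start of the intron and U2 with the branch point, U4 arrives paired with U6 and holds it inactive, U5 holds the exons to be joined, and U6 forms the catalytic centre. U11, U12, U4atac and U6atac take the parts of U1, U2, U4 and U6 on a rare class of introns, and U7 acts outside splicing, in the 3′ end formation of histone mRNA. Each exists in the genome as a few expressed genes and a large number of copies, most of them pseudogenes. A read that matches several near-identical copies can be given to any of them. How the counting treated such reads is not given in the sources used here, so the values of single copies are uncertain. The sum over a type can be uncertain too. Over the members, the U1 sum of the Inputs labelled SW480 and DLD-1 was 1067 and 1519 FPKM in the RIP table. It was 34989 and 88927 in the table of the acRIP-seq data, while the sums over the U6 members were alike in both tables.

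The libraries did not pair by label. Across 16196 protein-coding genes, the Pearson correlation of log2(FPKM + 1) between RIP and Input was 0.871 for the SW480 labels and 0.856 for the DLD-1 labels, but 0.944 when the RIP labelled SW480 was set against the DLD-1 Input and 0.951 for the opposite crossing. VIM, a mesenchymal filament gene, was at 128 FPKM in the RIP labelled SW480 and 0.0770 in the Input of that label, against 0.804 and 11.1 in the libraries labelled DLD-1. The labels were kept, libraries are named by them, and RIP is given over the Input of its own label and, with the Inputs exchanged, over that of the other line. All 5 epithelial markers were at 54.1 FPKM or more in every library of the RIP table, the sum of 4 intestinal markers ranged from 9.32 to 36.0 with CDX1 under 1 throughout, and 5 blood and stromal markers were each under 1. The fragment totals used to scale the libraries, read from the FPKM steps, were 29.6 M and 25.2 M in the RIP labelled SW480 and DLD-1 and 14.6 M and 13.5 M in their Inputs. One read of a gene as long as RNU6-1 was worth 0.315, 0.371, 0.639 and 0.692 FPKM in that order. The library kit is named for long RNA, and its part in the values of RNAs as short as these was not tested.

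Most members were seen as a handful of reads. The RIP labelled SW480 held 147 members above 0 and the RIP labelled DLD-1 160, and the Inputs held 212 and 171. Just 1 library held 218 members, of which 210 carry a pseudogene symbol (a symbol ending in P), and 34 were above 0 in all 4, of which 12 do. No library held more than 3 reads of 163 members, and 24 members had at least 100 reads in some library. The Inputs shared 100 members, which is 47.2% of those in the Input labelled SW480 and 58.5% of those in the Input labelled DLD-1. The RIP libraries shared 84, or 57.1% and 52.5% of theirs. A count of 0 allows up to 3 reads by counting error. A listed 0 need not reflect depth or an absent RNA: RNU1-27P was at 0 in the Input labelled DLD-1 of this table and at 37749 in the acRIP table's values for that Input, and the cause was not tested.

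Summed over the members, snRNA took a smaller part of both RIP libraries than of the Inputs. The sum was 960.5 FPKM in the RIP and 9002 in its Input under the SW480 label, and 2974 and 8283 under the DLD-1 label, which is 0.238%, 1.68%, 0.631% and 1.61% of the FPKM of all genes. Both RIP libraries lay below both Inputs, and the Inputs differed from each other less than the RIP libraries did. RIP over Input of the sums was -3.23 on the log2 scale (95% counting interval -3.28 to -3.18) for the SW480 labels and -1.48 (-1.51 to -1.44) for the DLD-1 labels. With the Inputs exchanged it was -3.11 and -1.60. These values are scaled to each library, so they do not give amounts of RNA. Protein-coding genes summed to log2 ratios of -0.03 and 0.10, snoRNA genes (207 past the same threshold), which guide modification of other RNAs, to -3.55 and -1.89, the 17 scaRNA genes, which guide modification of snRNAs in Cajal bodies, to -0.55 and 0.74, and the 514 genes of the class misc_RNA to -1.66 and -0.64.

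**Figure D1:**
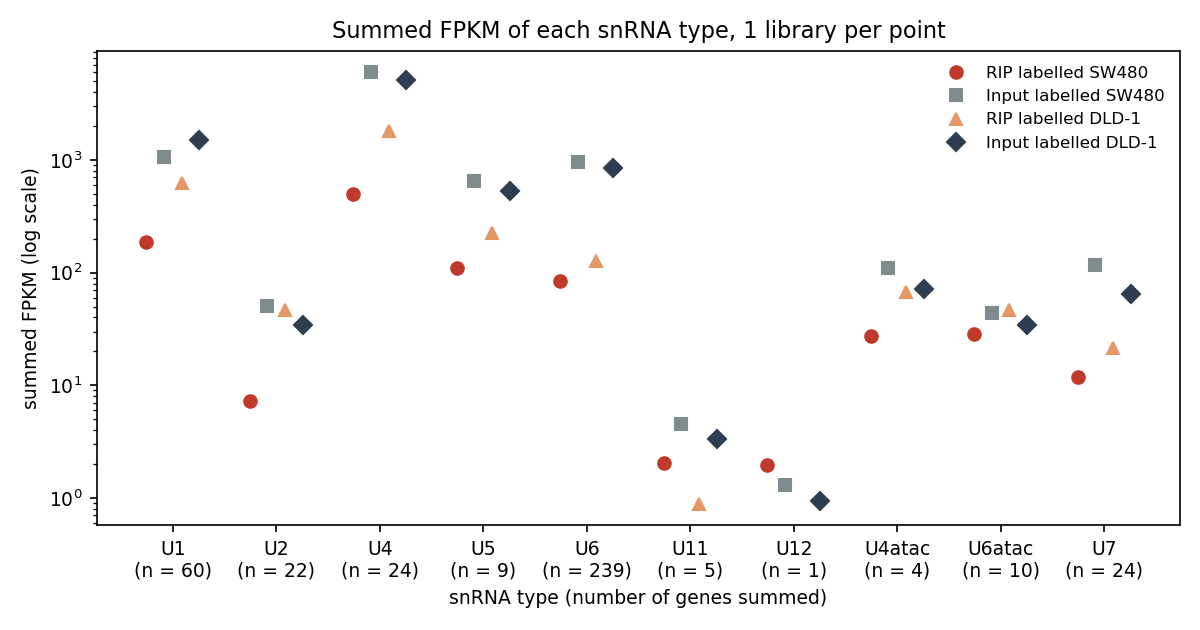
Summed FPKM of each snRNA type (log scale) in the 4 libraries of the RIP table, 1 library per point, with the number of genes summed under each type. For U1, U4, U5, U6 and U7 both RIP libraries lie below both Inputs. The order is the same for U11, on at most 9 reads per library, and for U4atac, at 67.25 and 71.16 FPKM in the RIP and Input labelled DLD-1. U12 is at 0 in the RIP labelled DLD-1 and not drawn there.

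Counted gene by gene at a 2-fold difference, on the scale log2((RIP + 1) / (Input + 1)), 138 members (34.7%) lay below Input and 37 (9.30%) above it for the SW480 labels, where all genes passing the threshold gave 13.1% and 13.7%. For the DLD-1 labels 105 members (26.4%) lay below and 65 (16.3%) above, against 17.5% and 11.4% of all genes. With the Inputs exchanged, the RIP labelled SW480 had 114 members (28.6%) below and 48 (12.1%) above, against 10.6% and 7.70%, and the RIP labelled DLD-1 had 127 (31.9%) below and 59 (14.8%) above, against 10.2% and 7.64%. The medians of the members' log2 ratios were -0.31 and 0 over their own labels, close to the medians of all genes (0.01 and 0), since a member with 1 or 2 reads sits near 0 on this scale. The members were selected on these same 4 columns, so these counts describe them and test nothing.

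A stricter view, added after the values were seen, kept the 50 members with a mean of at least 5 FPKM over the 4 libraries. For the SW480 labels 35 of them were at least 2-fold below Input and 4 above, where all 9122 genes of that level gave 11.7% and 19.8%. For the DLD-1 labels 27 were below and 12 above, against 14.6% and 19.3%. Below Input under both labels were 22 members, which is 44.0% against 2.69% of all genes, and above under both was 1, against 4.83%. The mean was taken over the same 4 libraries as the ratios. Members at 0 in both RIP libraries, such as RNU6-4P, RNU6-11P and RNU7-160P, passed through their Inputs alone and could not lie above Input. These counts therefore describe the members and test nothing. The median log2 ratios were -1.89 and -1.03, and those of all genes of that level 0.19 and 0.09. Of the 50, 32 were above 0 in all 4 libraries and 26 carry a pseudogene symbol. By type, below Input under both labels were 7 of 21 U1 genes, 2 of 2 U4 genes, 3 of 7 U5 genes, 9 of 12 U6 genes and 1 of 4 U7 genes, and none of the 2 U2 genes, RNU4ATAC or RNU6ATAC.

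**Figure D2:**
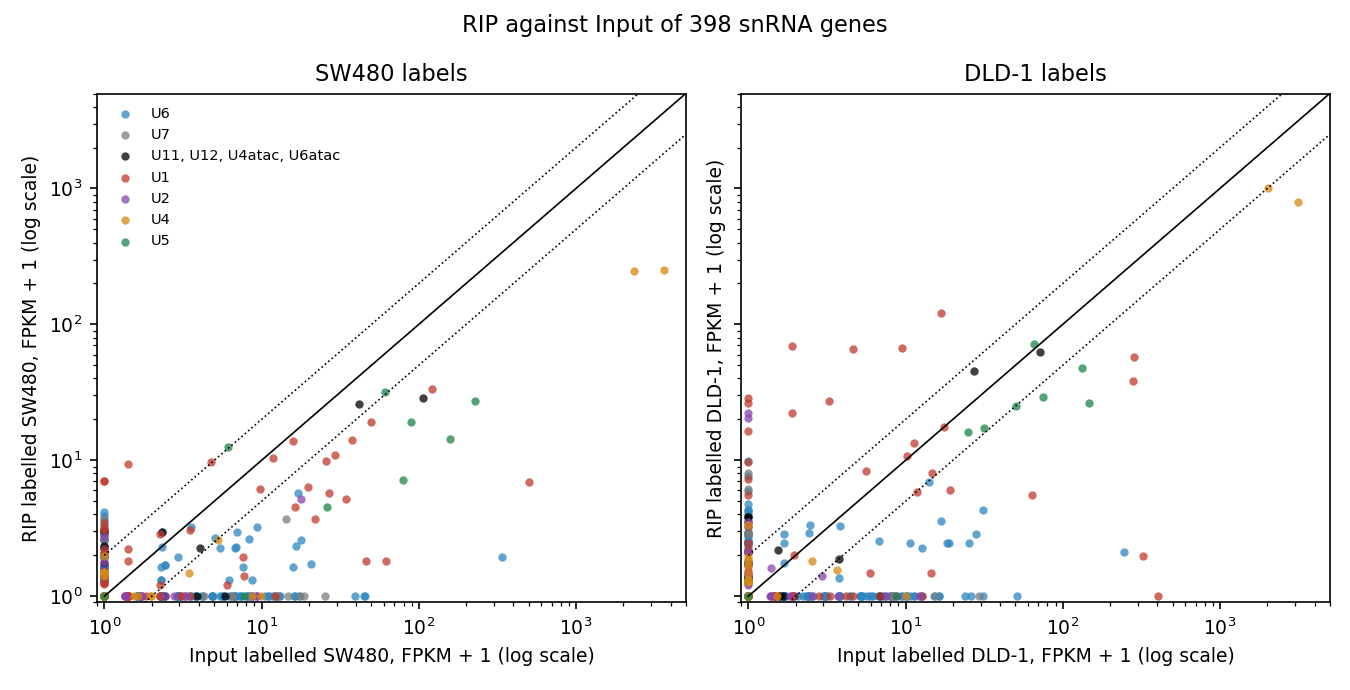
RIP against Input of the same label for 398 snRNA genes, both as FPKM + 1 on log scales, coloured by type. The solid line marks equal values and the dotted lines a 2-fold difference. The 2 U4 genes at the far right lie below the line in both panels, U6 genes (blue) listed at 0 in RIP lie along the bottom edge, and U1 genes (red) lie on both sides for the DLD-1 labels.

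U4 made up the largest part of the snRNA sum of the RIP table. It held 52.3% and 66.6% of it in the RIP and Input labelled SW480 and 60.8% and 62.5% in those labelled DLD-1, and 99.0% or more of the U4 sum came from its 2 expressed genes. These are RNU4-2 (chr12:120291759-120291903, GRCh38) and RNU4-1 (chr12:120293093-120293237), neighbours on chromosome 12. RNU4-2 was at 251 FPKM in RIP and 3612 in Input for the SW480 labels, and at 794 and 3130 for the DLD-1 labels. RNU4-1 was at 246, 2356, 1007 and 2032 in the same libraries. Both RIP libraries lay below both Inputs for each gene. RIP over Input on the log2 scale was -3.85 (-3.94 to -3.75) and -1.98 (-2.04 to -1.92) for RNU4-2, and -3.26 (-3.36 to -3.16) and -1.01 (-1.08 to -0.95) for RNU4-1, SW480 labels first. Exchanging the Inputs gave -3.64 and -2.19 for RNU4-2 and -3.05 and -1.23 for RNU4-1.

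The balance of both U4 genes differed between RIP and Input. Such a share is taken within a library and needs no scaling between libraries. RNU4-2 held 60.5% (95% exact interval 59.7 to 61.4) and 60.6% (59.7 to 61.6) of the reads of the pair in the Inputs labelled SW480 and DLD-1. In the RIP libraries of these labels it held 50.5% (48.3 to 52.7) and 44.1% (42.9 to 45.3). The values of the same Inputs in the acRIP table, which had no part in choosing the members, gave 66.0% (64.9 to 67.1) and 64.3% (63.0 to 65.5). All Input shares lay above both RIP shares with intervals apart, whichever label is taken. Reads shared by both genes were split in a way not given in the sources used here.

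U5 showed 1 gene apart from the others. The U5 sum of 9 genes was 109.9, 647.7, 227.1 and 526.9 FPKM in RIP SW480, Input SW480, RIP DLD-1 and Input DLD-1 (named by label, here and below in this order), a log2 ratio of -2.56 (-2.73 to -2.39) and -1.21 (-1.36 to -1.07). RNU5A-1 (chr15:65296051-65296167) was at 26.2, 226.5, 46.5 and 131.6 FPKM, RNU5B-1 on the same chromosome at 13.4, 158, 28.4 and 74.1, and RNU5F-1 on chromosome 1 at 18.2, 87.7, 25.4 and 145. All 3 were lower in both RIP libraries than in both Inputs, and RNU5D-1, at 6.11, 78.4, 24.3 and 49.2, was too. RNU5E-1 (chr1:11908152-11908272) was at 30.9, 59.9, 70.8 and 64.8, so that its RIP values fell on both sides of its Inputs. Its log2 ratio was -0.95 (-1.35 to -0.55) for the SW480 labels and 0.13 (-0.22 to 0.48) for the DLD-1 labels, and the ratios of the other 4 genes ranged from -3.68 to -2.27 and from -2.51 to -1.02. With the Inputs exchanged RNU5E-1 was at -1.07 and 0.24.

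Among the reads of these 5 U5 genes, RNU5E-1 took 33.3% (28.3 to 38.7) in the RIP labelled SW480 and 37.0% (33.0 to 41.0) in the RIP labelled DLD-1. It took 10.1% (8.33 to 12.1) and 14.3% (11.9 to 17.1) in the Inputs, and 8.47% (6.68 to 10.6) and 12.2% (9.63 to 15.2) in the acRIP table's values of the same Inputs. RNU5A-1, the largest of them in the Input labelled SW480 at 36.9% (34.0 to 39.9), took 27.3% (22.5 to 32.4) in the RIP of that label, and 28.1% (24.9 to 31.5) and 23.5% (20.1 to 27.2) in the Input and RIP labelled DLD-1, where the intervals overlap. RNU5F-1 took 31.2% (27.9 to 34.7) in the Input labelled DLD-1 and 19.1% (15.0 to 23.8) in the RIP labelled SW480, against 14.4% (12.3 to 16.7) and 12.95% (10.3 to 15.96) in the Input labelled SW480 and the RIP labelled DLD-1. The interval of the RIP labelled SW480 overlapped that of the Input of the same label and lay below that of the Input labelled DLD-1. U5 pseudogene symbols held 5.73% to 13.9% of the U5 sum. RNU5E-4P, singled out after its values were seen, was the U5 member at least 2-fold above the Input of its own label, at 11.5 FPKM in the RIP and 5.13 in the Input labelled SW480. Under the DLD-1 label it was at 15.2 and 24.1. Its log2 ratio turned with the Inputs exchanged, to -1.001 for the RIP labelled SW480 and to 1.40 for the RIP labelled DLD-1.

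**Figure D3:**
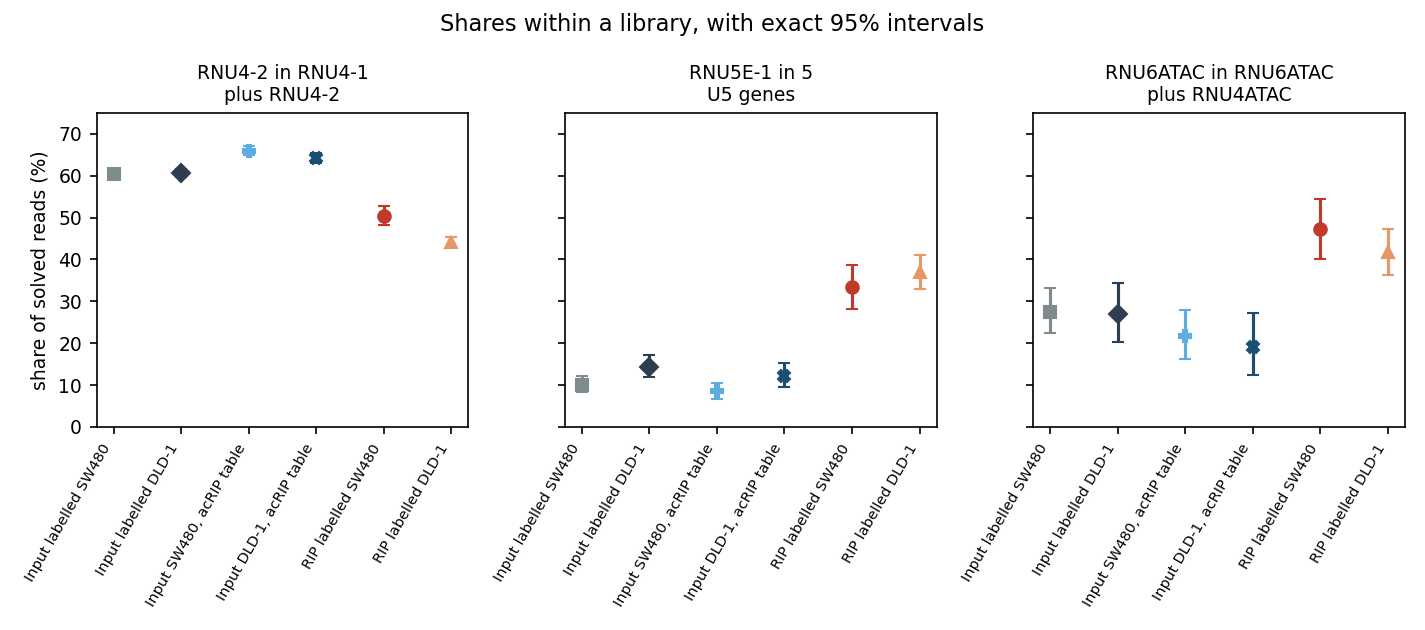
Share of solved reads (%) within each library for 3 ratios of genes, with exact 95% intervals that cover counting error. From left to right the points are the 2 Inputs as given in the RIP table, the same 2 Inputs as given in the acRIP table, and the 2 RIP libraries. RNU4-2 is lower and RNU5E-1 is higher in both RIP libraries than in both Inputs, with the values of either table.

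Of the minor spliceosome RNAs, the U4atac and U6atac genes lay nearer to the Input of their own label than the sums of U1, U4, U5 and U6 did. This no longer held with the Inputs exchanged for RNU4ATAC under the DLD-1 label, at -0.79 where the U1 sum was at -0.76. The U2 sum was further from Input for the SW480 labels (-2.80) but nearer than RNU6ATAC for the DLD-1 labels (0.46). RNU5E-1, a gene of a major type, was at -0.95 and 0.13. RNU4ATAC on chromosome 2 (chr2:121530880-121531009) was at 27.6, 106, 61.6 and 71.2 FPKM, log2 ratios of -1.94 (-2.30 to -1.59) and -0.21 (-0.54 to 0.13). RNU6ATAC on chromosome 9 (chr9:134164439-134164564) was at 24.9, 40.7, 44.4 and 26.5, log2 ratios of -0.71 (-1.16 to -0.25) and 0.75 (0.25 to 1.27). The RIP labelled DLD-1 was thus above its Input, and the RIP labelled SW480 below its Input. Over the exchanged Inputs the ratios of RNU6ATAC were -0.09 (-0.62 to 0.46) and 0.13 (-0.29 to 0.55), intervals that cross 0. RNU4ATAC was then at -1.36 (-1.76 to -0.98) and -0.79 (-1.08 to -0.49). RNU6ATAC took 47.2% (40.1 to 54.4) and 41.7% (36.4 to 47.2) of the reads of both genes in the RIP libraries and 27.6% (22.3 to 33.3) and 26.9% (20.4 to 34.4) in the Inputs. RNU4ATAC, set against RNU4-1 and RNU4-2 together, took 4.77% (3.91 to 5.75) and 2.99% (2.59 to 3.43) in RIP and 1.58% (1.37 to 1.81) and 1.23% (1.02 to 1.46) in the Inputs, with 2.08% and 1.57% in the Inputs of the acRIP table.

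Summed over the 20 minor members, the log2 ratio was -1.41 (-1.66 to -1.16) for the SW480 labels and 0.06 (-0.19 to 0.32) for the DLD-1 labels, and with the Inputs exchanged it was -0.86 (-1.14 to -0.58) and -0.49 (-0.71 to -0.27), both below Input. The 354 members of U1, U2, U4, U5 and U6 summed to -3.30 and -1.51. U11 and U12 were near the limit of detection. RNU11 was at 0 in both libraries labelled SW480 and at 0.889 and 2.76 FPKM in the RIP and Input labelled DLD-1, which is 3 and 5 reads, and RNU12 was listed at 0 throughout. Its copy RNU12-2P was at 1.95, 1.32, 0 and 0.95 FPKM.

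U6 had the most members and the largest spread over copies. Its 239 members, 229 of them with pseudogene symbols, summed to 83.4 and 965.8 FPKM in the RIP and Input labelled SW480 and to 127.2 and 854 in the libraries labelled DLD-1, log2 ratios of -3.53 (-3.72 to -3.34) and -2.75 (-2.92 to -2.57). For the DLD-1 labels this was the lowest ratio of the 9 types with a value. RNU6-5P led both Inputs, at 338.9 and 245.1 FPKM (530 and 354 reads), and was at 0.946 and 1.11 FPKM, 3 reads each, in the RIP libraries. Its log2 ratio was -8.48 (-10.8 to -6.93) and -7.78 (-10.1 to -6.22). RNU6-4P was at 44.1 and 50.5 FPKM in the Inputs and at 0 in both RIP libraries, at least 46.6-fold and 45.4-fold lower against 3 reads per library. RNU6-11P (38.4 and 24.9) and RNU6-531P (11.2 and 14.2) were likewise at 0 in both RIP libraries, at least 40.5-fold and 22.4-fold, and at least 11.5-fold and 12.4-fold, lower.

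Of the expressed U6 genes RNU6-1, RNU6-2, RNU6-7, RNU6-8 and RNU6-9, RNU6-8 was the one above 0 in all 4 libraries with at least 10 reads in each, at 4.73, 15.98, 5.94 and 13.2 FPKM (15 to 25 reads), and its log2 ratios were -1.76 (-2.79 to -0.78) and -1.15 (-2.20 to -0.11). RNU6-9 was at 0 in both RIP libraries and at 3.20 and 8.31 FPKM in the Inputs, at least 3.38-fold and 7.46-fold lower. RNU6-1, RNU6-2 and RNU6-7 had at most 7 reads in any library of the RIP table. RNU6-118P, RNU6-1285P and RNU6-137P were among the 5 members with the highest smaller ratio of both labels, the others being RNU1-2 and RNU7-48P, and all 5 were at 0 in both Inputs. They had 4 to 36 reads in a RIP library, and RNU6-118P, the U6 copy with the most, was at 1.99 FPKM (6 reads) and 6.62 FPKM (17 reads). With so few reads only the bounds for the DLD-1 labels of RNU1-2 (at least 6.43-fold higher), RNU6-118P (3.04-fold) and RNU6-1285P (2.32-fold) passed 2-fold. All 5 passed the threshold through RIP alone and could not lie below Input, so these bounds describe them and test nothing.

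U1 members lay on both sides of Input, and single genes differed between the labels. The 60 U1 members summed to 185.5, 1067, 627.9 and 1519 FPKM, log2 ratios of -2.52 (-2.63 to -2.41) and -1.27 (-1.35 to -1.20), and with the Inputs exchanged -3.03 and -0.76. Reads on the 4 genes RNU1-1, RNU1-2, RNU1-3 and RNU1-4 were few. As a read that matches several copies can stand on any of them, this does not show how much U1 RNA these genes gave. RNU1-1 (chr1:16514122-16514285) was at 1.23, 0.417, 25.4 and 0 FPKM, so that 105 of its reads were in the RIP labelled DLD-1, at least 18.8-fold above an Input at 0. RNU1-2 was at 2.06, 0, 8.71 and 0, RNU1-3 at 0, 0, 1.45 and 0, RNU1-4 at 0.206, 1.25, 1.21 and 0, and RNVU1-18 at 2.06, 2.503, 6.29 and 0 FPKM. The Input labelled DLD-1 was thus at 0 for all 5, and the RIP labelled DLD-1 was the highest library for 4 of them.

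Genes with RNVU1 symbols and copies with pseudogene symbols, on chromosome 1 and elsewhere, held most of the reads counted for U1 in the RIP table. The genes described next, with at least 50 reads in a library of the RIP table, were picked after their values were seen. RNVU1-7 (chr1:148038753-148038916) led the Input labelled SW480 with 501 FPKM, was at 277.8 in the Input labelled DLD-1, and was at 5.97 and 37.3 in the RIP labelled SW480 and DLD-1, log2 ratios of -6.39 (-6.98 to -5.86) and -2.90 (-3.16 to -2.64). RNVU1-31, which the table lists as U1 (ENSG00000270722), was at 32.3 and 121 in the RIP and Input labelled SW480 and 56.9 and 283.7 in those labelled DLD-1, with -1.91 (-2.19 to -1.62) and -2.32 (-2.54 to -2.10). Both genes were lower in both RIP libraries than in both Inputs. RNVU1-1 (0.823, 60.5, 5.08 and 18.1) and RNU1-106P (2.68, 20.9, 0.484 and 13.6) had the same order.

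Other U1 genes lay on opposite sides of Input under the 2 labels. RNVU1-6 was at 13.2 FPKM in the RIP and 36.7 in the Input labelled SW480, and at 68.7 in the RIP and 0.903 in the Input labelled DLD-1, log2 ratios of -1.48 (-1.97 to -0.998) and 6.25 (4.38 to 9.30). Over the exchanged Inputs they were 3.87 (1.95 to 6.94) and 0.91 (0.56 to 1.27), so that the direction for the RIP labelled SW480 turned with the Input chosen. RNVU1-27 (18.2, 48.5, 119 and 15.7) and RNVU1-29 (4.73, 25.9, 64.9 and 3.61) were below Input for the SW480 labels and above it for the DLD-1 labels, and over the exchanged Inputs their log2 ratios were 0.21 and 1.30, and 0.39 and 1.33. RNU1-67P went the other way: 8.44 and 0.417 FPKM in the RIP and Input labelled SW480, and 0 and 403 in those labelled DLD-1, where 893 reads stood against none. Over the exchanged Inputs, on the scale with a pseudocount of 1, it was at -5.42 and -0.50, so that its direction for the RIP labelled SW480 turned and it no longer lay on opposite sides.

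Both deposited tables, which hold values of the same Inputs, placed some of these genes higher in the Input of the same line. RNVU1-28 was at 323 FPKM in the Input labelled DLD-1 and 215.9 in the Input of that label in the acRIP table, against 18.8 and 24.9 in the Inputs labelled SW480. RNVU1-6 was at 36.7 and 28.8 in the Inputs labelled SW480 of both tables and at 0.903 and 0 in those labelled DLD-1. RNVU1-27 (48.5 and 50.1 against 15.7 and 10.6) and RNVU1-29 (25.9 and 30.5 against 3.61 and 5.64) were likewise higher in the values of both tables for the Input labelled SW480. In RIP the order of these 4 genes was the opposite: RNVU1-6, RNVU1-27 and RNVU1-29 were higher in the library labelled DLD-1 and RNVU1-28 in that labelled SW480, at 5.35 against 0.968 FPKM. RNVU1-31 and RNU1-28P kept the order of their Inputs: RNVU1-31 was higher under the DLD-1 label in the Inputs of both tables (283.7 against 121, and 201.8 against 60.9) and in RIP (56.9 against 32.3), and RNU1-28P was at 4.599 against 0.823 FPKM in RIP. Among the 50 members with a mean of at least 5 FPKM, the gene above Input by at least 2-fold under both labels was the U1 copy ENSG00000275405, at 8.64, 3.75, 26.4 and 2.26 FPKM.

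**Figure D4:**
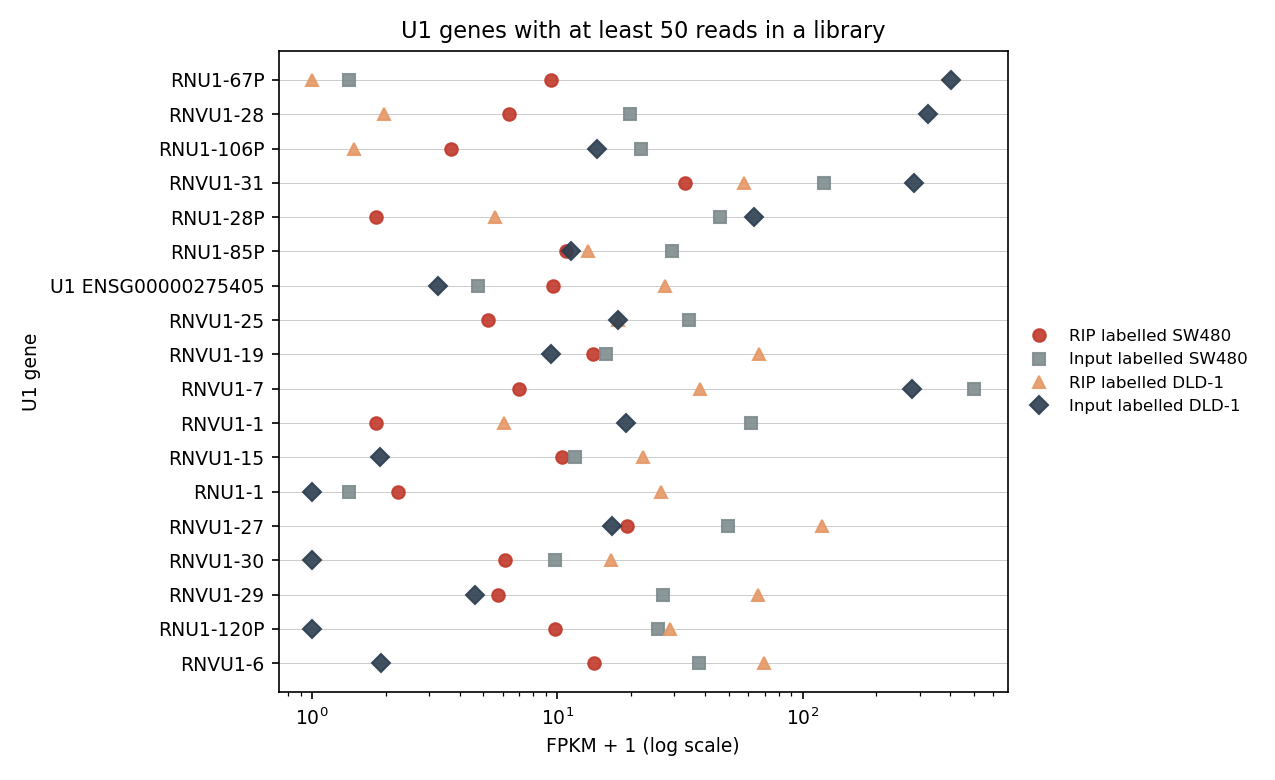
FPKM + 1 (log scale) of the 18 U1 genes with at least 50 reads in a library, 1 point per library, ordered by the difference between the log2 ratios of both labels. At the top the Input labelled DLD-1 (dark diamonds) is highest, as for RNU1-67P at 403 FPKM, and at the bottom the RIP labelled DLD-1 (triangles) is highest, as for RNVU1-6 at 68.7 FPKM.

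U2 was nearly absent from the RIP table. RNU2-1 and RNU2-2P, the expressed U2 genes, were listed at 0 in all 4 libraries and in the Inputs of the acRIP table, and RNU2-2 has no row. The 22 U2 members, 19 with pseudogene symbols, summed to 7.23 and 50.3 FPKM in the RIP and Input labelled SW480 and to 46.8 and 34.2 in those labelled DLD-1. The log2 ratio was -2.80 (-3.30 to -2.30) for the SW480 labels and 0.46 (0.09 to 0.82) for the DLD-1 labels. With the Inputs exchanged it was -2.24 (-2.78 to -1.70) and -0.10 (-0.41 to 0.20), and the interval for the DLD-1 labels then crossed 0. In the RIP labelled DLD-1, RNU2-63P at 21.3 FPKM and the copy ENSG00000278048 at 19.5 FPKM made up 87.1% of the sum, and in the Input of that label RNU2-63P was at 0. RNU7-1, the expressed U7 gene, was at 0 as well, and the 24 U7 members summed to 11.97, 115.8, 21.6 and 64.3 FPKM. RNU7-160P was at 16.6 and 14.3 FPKM in the Inputs, which is 15 and 12 reads, and at 0 in both RIP libraries, at least 10.1-fold and 7.46-fold lower.

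The table deposited with the acRIP-seq data holds a second set of values for each Input, which was not used to choose the members. Its unit is not named and was read as FPKM. Of the members at 10 FPKM or more in either table, 38 of 68 in the Input labelled SW480 and 34 of 61 in the Input labelled DLD-1 lay within 2-fold. By type these were 4 of 4 and 2 of 2 for U4, 6 of 6 and 6 of 7 for U5, 12 of 19 and 9 of 15 for U1, and 9 of 26 and 14 of 30 for U6. RNU4-2 was at 3259 and 2582 there, RNU4ATAC at 116.6 and 71.3, RNU5E-1 at 53.8 and 53.2 and RNU6ATAC at 32.4 and 16.9. RNVU1-7 was at 537.9 and 254.8, close to the 501 and 277.8 FPKM of the RIP table.

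U6 had the lowest share within 2-fold of these 4 types. The sums over the U6 members were alike, 965.8 and 854 FPKM in the RIP table and 1172 and 1018 in the acRIP table. The copies that held them were not. RNU6-5P was at 338.9 and 245.1 FPKM in the RIP table and at 3.40 and 0.864 in the acRIP table. RNU6-7 was at 1.28 and 4.85 FPKM in the RIP table and at 193 and 152.9 in the acRIP table, and RNU6-1 was at 1.28 and 0.692 against 108.7 and 80.3. The reads of U6 thus stood on different copies in each table while their sum moved little.

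For U1, where most members at that level lay within 2-fold, the sum over its members moved through RNU1-28P and RNU1-27P. It was 1067 and 1519 FPKM in the RIP table and 34989 and 88927 in the acRIP table, where RNU1-28P (chr14:34556226-34556389) held 17190 and 50276 and its neighbour RNU1-27P (chr14:34546714-34546877) 16788 and 37749. In the RIP table these genes, which were picked after their values were seen, were at 45.1 and 62.3, and at 1.25 and 0, in the Inputs. The members together made up 7.76% and 20.3% of the acRIP table's Input values, against 1.68% and 1.61% of the Inputs of the RIP table. The snRNA genes at 0 in the RIP table were not summed in the acRIP table, so its shares are lower limits for snRNA. Over the acRIP-table Input of the same label, scaled to the protein-coding genes, the log2 ratio was -8.09 and -7.73 for the U1 sum, against -2.52 and -1.27 over the Input of the RIP table. For U4 it was -3.83 and -1.74, against -3.58 and -1.52. The level of U1 in Input thus rests on which table is used.

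**Figure D5:**
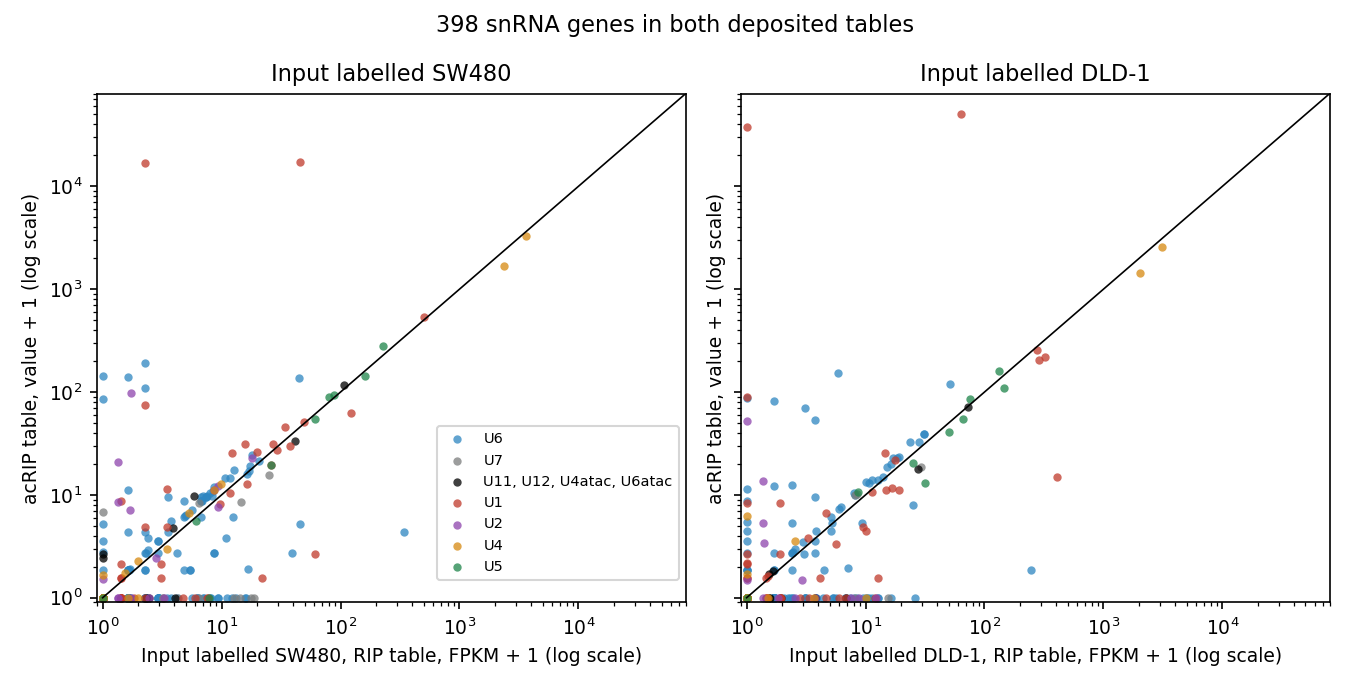
Input values of 398 snRNA genes in the RIP table (x axis) and the acRIP table (y axis), both + 1 on log scales, for each label. The line marks equal values. The expressed U4 and U5 genes lie near it, 2 U1 genes lie far above it at up to 50276, and U6 copies lie on both sides.

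Peaks of ac4C were counted on snRNA genes and on the other small RNA classes. The lists held 9536 peaks for SW480, 13964 for DLD-1 and 15622 for the pooled libraries, and 0, 0 and 1 of them had an snRNA gene as host. The 1 peak was on RNU6-611P, which is no member, at chr19:45047458-45047561 on the + strand and was given as exonic. The authors' fold of acRIP over Input was 6.34 with a p-value of 0.047, below the pooled median fold of 13.6, and the peak held 1 site of the motif the authors counted. The shortest peaks listed were 112, 111 and 104 bases, and 3523, 4117 and 5094 peaks were at most 200 bases. Whether RNAs as short as snRNAs could yield a peak was not tested. snoRNA genes held 1, 0 and 0 peaks, scaRNA genes none, and misc_RNA genes 2, 2 and 4. No member had a peak in any list. The share of all genes that held one was not counted here, so these counts are not called low or high.

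The mRNAs of proteins that bind or make snRNAs were mostly within 2-fold of their Input. For scale, 13.1% of all genes lay at least 2-fold below and 13.7% above for the SW480 labels and 17.5% and 11.4% for the DLD-1 labels, and of protein-coding genes 8.38% and 18.1%, and 15.0% and 14.3%. Of 7 measured genes of the Sm ring, which clasps U1, U2, U4 and U5, none was at least 2-fold below Input under either label, and 1 (SW480 labels) and 3 (DLD-1 labels) were above, with median log2 ratios of 0.20 and 0.86. SNRPD2 was highest for the SW480 labels at 126 FPKM in RIP and 42.4 in Input, and SNRPG for the DLD-1 labels at 38.5 and 8.54. SNRPE was the other gene above for the DLD-1 labels, and SNRPD3 had the lowest ratio for the SW480 labels, at -0.83. Of the 7 genes of the LSm ring, which clasps U6, LSM6 was below for the SW480 labels (-1.24), and LSM6, LSM3 and LSM4 were above for the DLD-1 labels (1.85, 1.28 and 1.08), with medians of -0.17 and 0.65. LSM6 turned with the Inputs exchanged, to 1.08 and -0.47, and LSM3 and LSM4 were then within 2-fold. The medians became 0.31 and 0.51 for the Sm ring and 0.37 and 0.28 for the LSm ring.

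Of 24 measured genes for proteins of single particles, SF3A2, a U2 protein, was below and ZMAT5 above for the SW480 labels, and SNRNP200 was below and RNPC3, SNRNP40 and ZMAT5 above for the DLD-1 labels. Over the exchanged Inputs ZMAT5 (1.25 and 1.80) stayed above for both RIP libraries, RNPC3 was above for the RIP labelled SW480 (1.06), SNRNP200 was below for the RIP labelled DLD-1 (-1.03), and SF3A2 and SNRNP40 were within 2-fold. SNRNP200, the helicase that unwinds U4 from U6, was at 56.8 FPKM in RIP and 92.5 in Input (SW480) and 44.7 and 95.4 (DLD-1), log2 ratios of -0.69 and -1.08. ZMAT5 and RNPC3, proteins of the minor spliceosome, had log2 ratios of 1.98 and 1.06 and 0.48 and 1.36. Of 43 measured genes for snRNA transcription, 3′ processing, export and assembly, 1 was below (SNAPC4) and 8 above for the SW480 labels and 5 below and 9 above for the DLD-1 labels. INTS11, the nuclease of the Integrator complex that cuts snRNA precursors, was at 26.5 and 41.1 FPKM (SW480) and 12.6 and 70.3 (DLD-1), a log2 ratio of -0.62 and -2.39. SSB, which binds the U-rich end of new U6, was at 83.6 and 18.8 and at 55.9 and 24.8, and GEMIN2, of the complex that loads the Sm ring, at 7.39 and 1.25 and at 10.7 and 2.91. MEPCE, which caps the RNA 7SK, was above for the SW480 labels (1.15) and below for the DLD-1 labels (-1.83), and over the exchanged Inputs it was at -0.20 and -0.48, within 2-fold of both. Over those Inputs 1 gene of this list was below and 6 above for the RIP labelled SW480, and 2 below and 6 above for the RIP labelled DLD-1. NAT10 mRNA itself was at 20.8 and 21.2 FPKM in the RIP and Input labelled SW480 and at 14.3 and 23.0 in those labelled DLD-1.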

How the data were processed

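The authors deposited FPKM values for the RIP and Input libraries and values read here as FPKM for the Inputs of the acRIP table. They also deposited peak lists, in which each peak has a fold of acRIP over Input and a p-value. The submitters' processing notes name cutadapt 2.5, HISAT2 2.1.0 and GRCh38, and also a mouse build. The counting tool, strand setting and treatment of multi-mapping reads are not given in the sources used here. The authors' RIP/Input ratio columns were not used, nor were the acRIP expression columns. An IgG group is named for RIP in the study's results, but labels and table hold Input only.

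The members, gene lists and alternatives were chosen with earlier results of these data known. snRNA types were read from the symbols, and 8 of 17 members listed only as U1, U2 or U6 were given the current symbol of their Ensembl ID. FPKM values fell on whole-read steps, and a length that made every value whole within 0.002 reads was found for 398 of 398 members, 250 of them at the RefSeq length (RefSeq, GRCh38.p14, listed 373). Where RefSeq listed none, the smallest length was taken, so that reads are lower limits. The steps were set on snRNA genes of RefSeq length, of which 61.5% to 66.7% fell on whole reads. The solving of steps and reads was tested on simulated data. Ratios used a pseudocount of 1, called at 2-fold. For single genes the ratio of solved reads has an exact Clopper-Pearson 95% interval, and sums have a delta-method one. PCR copies are not independent molecules. Lower bounds use a floor of 3 reads per library. Positions in GRCh38 are those RefSeq gives for the symbol. Peak starts were moved by 1 base to count from 1.

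Named members were fixed by symbol (the expressed genes of each type), or by rule: the 5 highest in Input and in RIP, the 5 highest and 5 lowest by the smaller ratio of both labels, the 5 nearest the threshold, and the 3 highest and lowest of each protein list by the mean ratio of both labels. Protein genes past 2-fold, U1 genes with at least 50 reads and members said to be singled out were added after the values were seen. With 1 library per group no test was made. Python 3.11.15, pandas 2.3.3, NumPy 2.4.6 and SciPy 1.17.1 were used.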

Additional observations from a re-analysis of the deposited data

Results flagged for a closer look

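With 1 library per group, no sample could be set against others of its group. Some types and genes lay above Input under one label and below it under the other, beyond the counting intervals of both. The difference between the labels was not tested, and for all of them the pairing of the labels goes against the correlations between libraries. The U2 sum differed by -3.25 on the log2 scale (SW480 labels minus DLD-1 labels) and the U6atac sum by -1.04, and RNU6ATAC alone by -1.41 on the scale with a pseudocount of 1. Among U1 genes, on the same scale, RNVU1-6 differed by -6.61, RNU1-120P by -6.25, RNVU1-29 by -6.06 and RNVU1-27 by -4.21, while RNU1-67P differed by 11.4 the other way. With the Inputs exchanged, the U2 sum was at -2.24 and -0.10 and the U6atac sum at -0.25 and 0.09. On that exchange, with a pseudocount of 1, RNVU1-6 was at 2.90 and 0.89, RNU1-120P at 3.29 and 0.16, RNVU1-29 at 0.31 and 1.29, RNVU1-27 at 0.20 and 1.28, and RNU1-67P at -5.42 and -0.50, so that for none of these 5 U1 genes did the labels lie on opposite sides of Input. The U6atac intervals then crossed 0, as did that of the U2 sum for the DLD-1 labels (-0.41 to 0.20).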

How the results depend on the processing

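No paired analysis was possible because each group holds 1 library and the labels give no replicate numbers, and leaving out a library would empty its group. Of 78 values under alternatives, 39 stayed near the main value and 39 did not. Near meant within 1.5 times for counts and within the counting interval for sums. For medians it meant within an interval drawn from the spread over the members, which does not cover counting error. The sum over the members kept its sign in every alternative. The U2 sum for the DLD-1 labels went from 0.46 to -0.10 over the Input of the other line. It was -1.20 over the acRIP-table Input and 4.66 with symbols not ending in P, and the cause was not tested.

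A pseudocount of 0.1 gave 83 and 112 members above Input (SW480 and DLD-1 labels), and a pseudocount of 10 gave 0 and 11 above and 40 and 33 below. Fewer members are counted in the next settings by construction. For these pseudocounts, and for the filters on Input, reads and symbols that follow, the share of all genes was not counted. How far a setting itself moves the counts was not tested. With an Input of at least 1 FPKM in both lines, 53 and 47 of 61 lay below and 2 and 4 above, with medians of -2.23 and -1.91, a choice that favours genes high in Input. With at least 10 reads, 75 of 94 and 57 of 88 lay below and 8 and 19 above, with medians of -2.75 and -2.48. Symbols not ending in P gave 23 and 15 of 48 below and 5 and 14 above, with a median of -0.92 for the SW480 labels, and sums at -3.29 and -1.33. A mean of at least 5 FPKM over the same 4 libraries, added after the data were seen, gave 35 and 27 of 50 below and 4 and 12 above, with medians of -1.89 and -1.03. Centring on protein-coding genes moved the SW480 sum to -3.40 and the DLD-1 median from 0 to 0.0166. Leaving out RNU4-2 gave sums of -2.93 and -1.24, and the exchanged Inputs gave -3.11 and -1.60. The acRIP-table Input gave -5.98 and -5.58, and there RNU1-28P and RNU1-27P hold most of the members' sum. By type, 31 of 50 values moved beyond their counting interval. Depth limits single copies, since 163 of 398 members never exceed 3 reads, and the values of single U6 and U1 copies in Input differ between the tables.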
